A study of Arabidopsis thaliana with 18 samples.

Results

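The difference between genotypes in the response to sugar was examined in all 18 of the 18 libraries of the series, 3 in each of 6 groups. The libraries were made from whole *Arabidopsis thaliana* seedlings, 5 days old, of wild-type Col-0 and of *atm1-1*, a line that carries the T-DNA insertion SAIL_405_B08 in *ATM1* (AT3G19960) in the Col-0 background. Seeds of both genotypes were plated on Murashige and Skoog agar that held no sugar (mock), glucose at 15 mM or sucrose at 15 mM, so that each sugar group had been raised on its sugar and was not given a short pulse of it. The sugar response of a genotype was taken as the mean of its glucose and sucrose groups minus its mock group on the log2 scale, and the interaction as the response of *atm1-1* minus the response of Col-0. A positive interaction therefore marks a gene that rose more, or fell less, with sugar in *atm1-1*, and a negative one a gene that rose less or fell more. The study asked whether seedlings without this myosin respond to sugar in the way that wild-type seedlings do. The insertion line is 1 allele, and no complemented line was among the libraries.

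Sugars made in leaves feed growing roots and also act as signals. Hexokinase and the TOR kinase relay a good supply and promote ribosome production and cell division, whereas the SnRK1 kinase and the bZIP factors of its pathway relay a poor supply and switch on genes for the breakdown of stored carbon and amino acids. *ATM1* encodes a class VIII myosin, an actin-based motor found at the plasma membrane, plasmodesmata and young cell walls. Because whole seedlings were sampled, fewer cells of a type and less RNA per cell cannot be told apart in any value given here.

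Total counts lay between 9450790 and 20256309 per library, and 19679 of the 32832 genes in the table had enough counts to be tested. The *atm1-1* glucose group was the least even: its replicate 2 differed from the other replicates of its group with an SD of 0.885 log2 units across genes and its replicate 1 with 0.727, and the lowest of all 18 libraries was 0.393. *ATM1* itself gave 26.2 to 43.9 CPM (counts scaled to a common library total with the TMM factors of edgeR) in the 9 Col-0 libraries and 26.9 to 43.8 in the 9 *atm1-1* libraries, and the ranges overlapped. The counts come from tags at the 3′ end of transcripts and hold no read positions, so they do not check the insertion, and *atm1-1* means here the libraries labelled so. The *ATM1* interaction was 0.28 (SE 0.23, adjusted p = 1.000).

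No gene passed the threshold for the interaction. In edgeR's quasi-likelihood test with Benjamini-Hochberg adjustment over the 19679 genes, 0 genes (0% of those tested) had an adjusted p of 0.1 or less, and the lowest adjusted p, shared by 4 genes, was 0.223. At an unadjusted p under 0.05 there were 659 genes, 3.35% of those tested, of which 386 (1.96%) were positive and 273 (1.39%) negative. Other tools on the same counts called a few genes: DESeq2 called 9, limma voom with sample quality weights called 4, and edgeR with no filter on low counts called 25. The 4 genes called by limma voom were also called by DESeq2 and by edgeR without a filter, and they were *THAD*, *CYP81F4*, *COR15B* and AT1G33790. Leaving out 1 library at a time gave 0 to 2 called genes. *THAS1* and *THAD* were called without Col-0 sucrose replicate 1, *CYP81F4* without Col-0 sucrose replicate 3, and *COR15B* without Col-0 glucose replicate 1 and again without *atm1-1* glucose replicate 2.

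The interaction is a difference between 2 differences and was measured less precisely than either response. Its median standard error over genes was 0.314, against 0.223 for the Col-0 response and 0.222 for the *atm1-1* response, and the median half-width of its 95% interval was 0.647 log2 units. For 11362 genes (57.7%) the whole interval lay within a 2-fold difference between the genotypes' responses. For the others the interval reached beyond 2-fold at this depth and with 3 libraries in a group.

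Each genotype had a sugar response of its own. In Col-0, 175 genes (0.889% of those tested) were higher with sugar and 76 (0.386%) were lower in edgeR's quasi-likelihood test at an adjusted p of 0.1. In *atm1-1*, 678 genes (3.45%) were higher and 530 (2.69%) lower, and over both genotypes together 1169 (5.94%) were higher and 1138 (5.78%) lower. When libraries were scaled by their totals only, these splits became 277 and 45 in Col-0, 871 and 275 in *atm1-1*, and 1913 and 557 together. The larger number of calls in *atm1-1* is a count on each side of a threshold and not a test of the difference, which is the interaction. The counts also rested on single libraries. The Col-0 count of 251 became 94 without Col-0 mock replicate 1, 113 without Col-0 mock replicate 3, 167 without Col-0 glucose replicate 1, 408 without *atm1-1* glucose replicate 1 and 554 without *atm1-1* glucose replicate 2. The last 2 libraries are not part of the Col-0 contrast but are part of the shared fit, and 20002 and 19966 genes were tested without them. Without *atm1-1* mock replicate 1, 19967 genes were tested and the Col-0 count was 230. The cause of these moves was not tested. The *atm1-1* count of 1208 became 761, 604 and 579 without *atm1-1* mock replicates 1, 2 and 3 in that order, and 2272 without *atm1-1* glucose replicate 1. The joint count of 2307 became 1451 without Col-0 mock replicate 1.

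The genes that responded in both genotypes did so in 1 direction. Of the 251 genes called in Col-0, 202 (80.5%) were called in *atm1-1* in the same direction, which is 16.7% of the 1208 called there, and 0 genes were called in opposite directions. Across the 19679 genes the Col-0 and *atm1-1* responses, which share no library, had a Pearson r of 0.507 and a Spearman rho of 0.434. Genes are not independent replicates, and both estimates carry the noise of 9 libraries each.

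The largest responses were seed storage and defensin-like transcripts that were higher with sugar in both genotypes. Cruciferins are the main storage proteins of the Arabidopsis seed. *CRA1*, a cruciferin, lay at 0.252 to 1.26 CPM in Col-0 mock libraries and at 9.50 to 80.6 with sugar, and in *atm1-1* at 0.157 to 0.654 and 14.7 to 75.2. All 6 sugar libraries of each genotype were above its 3 mock libraries, and the interaction was 0.64 (SE 1.02, adjusted p = 1.000) in edgeR's quasi-likelihood test. *CRC*, the cruciferin 3 gene, was at 0.0744 to 0.0839 CPM in the mock and 2.19 to 29.2 CPM in the sugar libraries of Col-0 and at 0 to 0.245 and 4.57 to 31.5 CPM in those of *atm1-1*. AT4G11393, a defensin-like gene, was at 0 to 0.168 and 4.67 to 9.43 CPM in Col-0 and at 0 to 0.0787 and 4.27 to 14.2 CPM in *atm1-1*. With mock libraries at or near 0, the interaction of these 2 genes depends on a handful of reads and is not given as a fold.

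The deepest falls were also common to the genotypes. AT1G54870, annotated as an NAD(P)-binding Rossmann-fold protein, fell from 31.0 to 61.9 CPM in Col-0 mock libraries to 3.38 to 11.0 with sugar, and from 10.8 to 23.9 to 1.08 to 4.11 in *atm1-1*. The responses were -2.94 and -3.01 on the log2 scale, and the interaction was -0.06 (SE 0.40). With glucose alone the *atm1-1* response was the deeper one (-1.22, SE 0.52) and with sucrose alone the shallower (1.09, SE 0.48), 2 estimates that share the mock libraries. AT1G54860, a glycoprotein membrane precursor, had responses of -3.00 in Col-0 and -3.50 in *atm1-1*, and AT1G03106, an uncharacterized protein, -2.42 and -2.32. The intervals of their interactions, -1.67 to 0.67 and -0.94 to 1.14, each reach past a 2-fold difference in 1 direction.

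**Figure D1:**
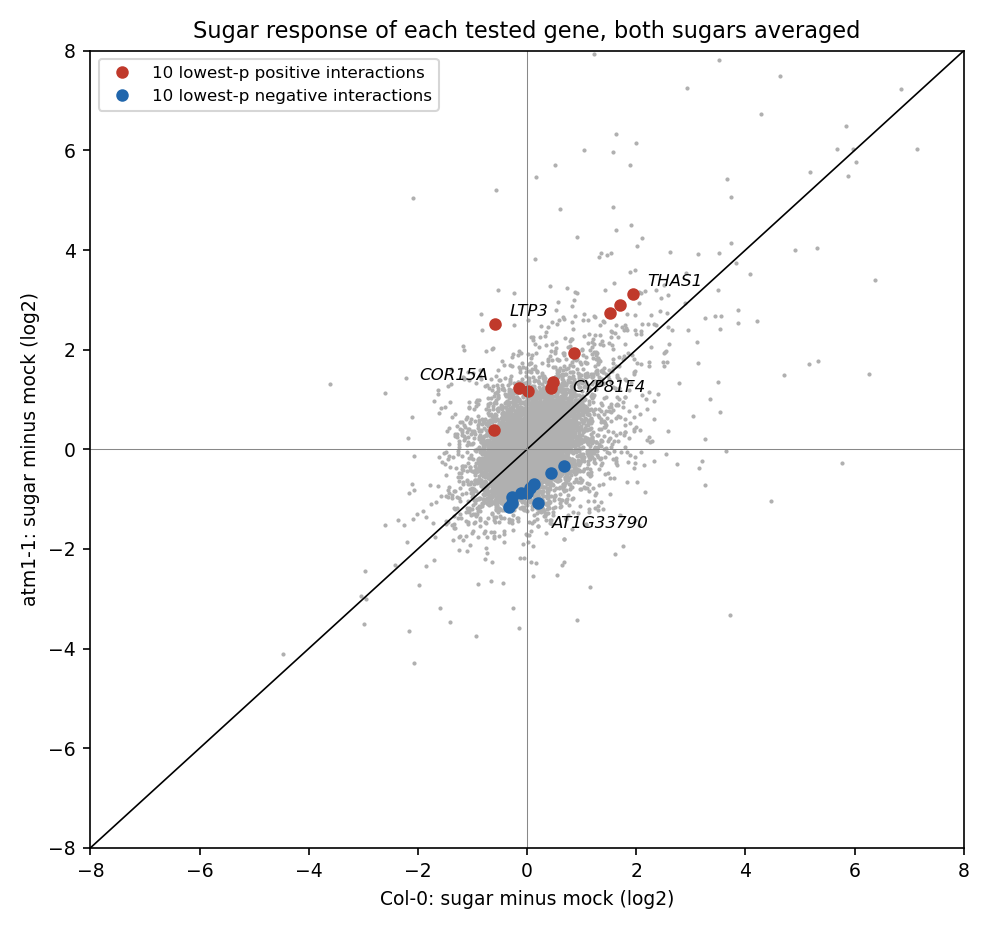
Sugar response of each of the 19679 tested genes in Col-0 (x axis) and in *atm1-1* (y axis), both as log2 sugar minus mock with the 2 sugars averaged. The diagonal marks equal responses. Marked are the 10 genes of lowest interaction p in each direction (red positive, blue negative) with mean log2 CPM of at least 1. They sit off the diagonal, and none passed the threshold after adjustment.

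Genes moved by sugar over both genotypes tended to have the larger response in *atm1-1*. Of the 1169 sugar-raised genes, 851 (72.8%) had the larger rise in *atm1-1*, with a median interaction of 0.19, and 117 were positive and 16 negative at an unadjusted p under 0.05. Of the 1138 sugar-lowered genes, 789 (69.3%) had the deeper fall in *atm1-1*, with a median interaction of -0.10, and 38 were negative and 4 positive. Over all tested genes the median interaction was -0.01, with 9652 positive and 10027 negative. At an unadjusted p under 0.05, 386 of all 19679 tested genes (1.96%) were positive and 273 (1.39%) negative. These shares are a description: genes were selected on the average of both responses, no test was made, and they moved with single libraries. Without Col-0 mock replicate 2 the shares were 57.6% and 51.4% and the medians 0.08 and -0.01. Without Col-0 sucrose replicate 1 the sugar-lowered share was 53.6% and its median -0.02, and without *atm1-1* glucose replicate 1 or *atm1-1* sucrose replicate 1 that median was -0.17 or -0.06. Without *atm1-1* mock replicate 1 the shares were 80.7% and 77.4% and the medians 0.29 and -0.16. The medians kept their sign in each of the 18 fits that left out 1 library, but their size did not hold. The sugar-lowered median without Col-0 mock replicate 2 was no larger in size than the main-fit median of all tested genes. The 18 fits share libraries and are not independent.

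Genes of triterpene synthesis had the highest median interaction of the 25 gene lists examined. Thalianol and marneral are triterpenes made in Arabidopsis roots from oxidosqualene, and the thalianol genes lie side by side on chromosome 5. All 6 genes of the list were tested, 6 of 6 had a positive interaction with a median of 1.18 (-0.01 over all genes), 5 were positive at an unadjusted p under 0.05 (1.96% of all tested genes), and 0 passed after adjustment. Sugar raised 5 of them in Col-0 and 6 of 6 in *atm1-1* in edgeR's quasi-likelihood test, against 0.889% and 3.45% of all tested genes. The median of the interaction stayed between 1.09 to 1.32 when single libraries were left out. The lists and their members were chosen with earlier results of these data known, so neither the rank nor these counts are independent evidence. *THAD*, *THAS1* and *THAH* of this list are also among the named positive genes of lowest p. Genes that lie side by side and move together are not independent replicates.

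*THAD* (CYP705A5, AT5G47990), the P450 that desaturates thalian-diol, read 45.0, 36.5 and 46.2 CPM in Col-0 mock libraries, 163, 113 and 167 with glucose and 172, 96.0 and 124 with sucrose. In *atm1-1* it read 23.4, 20.3 and 21.9 in mock, 156, 179 and 166 with glucose and 147, 145 and 184 with sucrose. The 3 *atm1-1* mock libraries lay below every Col-0 mock library, and the sugar libraries of the genotypes overlapped. The response was 1.71 (SE 0.17) in Col-0 and 2.89 (SE 0.19) in *atm1-1*, and the interaction was 1.19 (SE 0.23, adjusted p = 0.223) in edgeR's quasi-likelihood test with Benjamini-Hochberg adjustment. *THAS1* (AT5G48010) makes thalianol, the first step of the route, and had the same shape.

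*THAS1* read 27.8, 26.3 and 23.8 CPM in Col-0 mock libraries, 112, 110.5 and 128 with glucose and 133, 57.3 and 66.1 with sucrose, and in *atm1-1* 12.7, 14.1 and 12.2 in mock, 129.7, 103 and 119 with glucose and 98.7, 92.3 and 132 with sucrose. Col-0 sucrose replicate 1 was high beside the other Col-0 sucrose libraries. The interaction was 1.17 (SE 0.27, adjusted p = 0.673) in edgeR's quasi-likelihood test and 1.41 (adjusted p = 0.00457) without that library. Over the 18 fits that left out 1 library it ran from 1.07 to 1.41 and was called only in that 1. *THAH* (CYP708A2, AT5G48000), the thalianol hydroxylase, lay at 4.53 to 9.26 CPM in Col-0 and 2.70 to 3.07 in *atm1-1* mock libraries and at 13.3 to 27.3 and 16.9 to 22.4 with sugar, with an interaction of 1.22 (SE 0.32). *THAA1*, an acyltransferase gene of the cluster, had an interaction of 1.12 (SE 0.48) with mock libraries that overlapped. On the marneral side, *MRN1*, the marneral synthase gene, also had overlapping mock libraries and read 0.372 to 1.59 CPM in Col-0 and 0 to 0.409 CPM in *atm1-1* mock libraries, 1 of which held no read, against 1.28 to 5.45 and 1.32 to 9.08 with sugar. *MRO*, the marneral oxidase gene, had the smallest interaction of the list, 0.41 (SE 0.33), and its mock libraries overlapped at 5.58 to 6.21 CPM in Col-0 and 3.84 to 6.61 CPM in *atm1-1*.

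The 250 bases before the annotated start of 3 genes are shown. *THAD* and *THAS1* were taken because these neighbours moved together. *COR15A* was taken because its window holds the G-box and the dehydration-responsive core, both among the motifs listed next. Sequence and gene starts are those of RefSeq on TAIR10.1, written 5′ to 3′ on the strand of the gene, and capitals mark any of 5 searched motifs on either strand: the G-box CACGTG, the telo-box AAACCCTA, the site II element TGGGCC, the sugar-repressive element TATCCA and the dehydration-responsive core CCGAC, which was added after the named genes were known.
THAD, chr5:19434508-19434757, plus strand: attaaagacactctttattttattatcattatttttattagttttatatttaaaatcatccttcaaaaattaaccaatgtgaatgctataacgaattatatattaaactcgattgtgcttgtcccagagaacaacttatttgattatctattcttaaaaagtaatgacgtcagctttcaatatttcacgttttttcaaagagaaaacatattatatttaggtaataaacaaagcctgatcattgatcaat
THAS1, chr5:19456587-19456836, plus strand: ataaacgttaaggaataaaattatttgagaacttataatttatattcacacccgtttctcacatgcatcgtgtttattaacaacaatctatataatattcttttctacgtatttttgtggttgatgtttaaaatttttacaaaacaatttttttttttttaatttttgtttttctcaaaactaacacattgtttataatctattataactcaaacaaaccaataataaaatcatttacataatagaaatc
COR15A, chr2:17712331-17712580, minus strand: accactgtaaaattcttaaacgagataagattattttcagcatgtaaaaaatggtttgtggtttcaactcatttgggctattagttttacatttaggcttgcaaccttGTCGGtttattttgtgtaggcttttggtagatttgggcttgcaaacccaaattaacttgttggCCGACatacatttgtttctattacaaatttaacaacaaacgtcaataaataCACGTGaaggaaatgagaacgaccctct
The *THAD* and *THAS1* windows hold none of the 5 motifs, nor do those of the other 4 genes of the triterpene list. The *COR15A* window holds CCGAC 142 bases before the start on the opposite strand and 79 bases before it on the strand of the gene, and a G-box 28 bases before it. Over 27443 promoter windows of this length, 6.49% hold the G-box, 4.49% the telo-box, 13.7% the site II element, 13.6% TATCCA and 12.0% CCGAC. Of the 19118 windows of tested genes, 7.53% hold the G-box and 13.0% CCGAC. Among the named genes of lowest p, CCGAC lay in 1 of the 10 positive and 3 of the 10 negative ones. The G-box lay in 1 of 10 in each direction. A match in these letters is not evidence of binding, and a window without a match says nothing of the factor.

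The cold-regulated pair *COR15B* (AT2G42530) and *COR15A* (AT2G42540) encodes small chloroplast proteins that protect membranes during freezing. *COR15B* read 20.1, 24.7 and 23.5 CPM in Col-0 mock libraries, 21.5, 12.6 and 13.3 with glucose and 33.7, 35.8 and 30.2 with sucrose. In *atm1-1* it read 19.3, 20.9 and 23.4 in mock, 34.4, 25.9 and 43.0 with glucose and 68.5, 61.4 and 70.9 with sucrose, so that here, unlike in *THAD* and *THAS1*, the mock libraries overlapped and the 3 *atm1-1* sucrose libraries stood above every other library. The response was 0.01 (SE 0.17) in Col-0 and 1.18 (SE 0.17) in *atm1-1*, and the interaction 1.17 (SE 0.24, adjusted p = 0.223) in edgeR's quasi-likelihood test. It was 1.22 (SE 0.28) with glucose and 1.11 (SE 0.27) with sucrose, the sugars sharing their mock libraries. Among the 18 fits that left out 1 library the call was made in 2. These were without Col-0 glucose replicate 1 (adjusted p = 0.0636) or *atm1-1* glucose replicate 2 (adjusted p = 0.0685). Over the 18 fits the interaction ran from 1.08 to 1.31, and the adjusted p reached 0.881.

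*COR15A* differed in where the genotypes parted. It read 13.4, 20.1 and 14.8 CPM in Col-0 and 6.51, 7.09 and 7.77 CPM in *atm1-1* mock libraries, which did not overlap, and 6.85 to 20.1 and 8.44 to 27.8 with sugar, which did. Its interaction was 1.38 (SE 0.32), from responses of -0.15 and 1.23. The 2 genes are near copies that lie 7 bases apart on chromosome 2, and how reads were shared between them is uncertain. *LTP3*, a lipid transfer protein gene, had the largest positive value among the 10 genes of lowest p, 3.09 (SE 0.75), on few reads: 1.19, 8.24 and 3.11 CPM in Col-0 mock libraries and 0.576, 0.394 and 0.736 CPM in *atm1-1* mock libraries. Without Col-0 mock replicate 2, the highest of them, the value was 2.14, and its near copy *LTP4* had at most 14 counts in any library and was not tested.

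*CYP81F4* (AT4G37410) encodes a P450 that hydroxylates the indole ring of tryptophan-derived glucosinolates, the sulfur-rich defence compounds of the cabbage family. It read 297, 323 and 300.3 CPM in Col-0 mock libraries, 500.5, 412 and 456 with glucose and 373, 308 and 522 with sucrose, and in *atm1-1* 171, 153 and 163 in mock, 403, 490.1 and 435 with glucose and 431, 348 and 388 with sucrose. The 3 *atm1-1* mock libraries were lower than every other library. The response was 0.48 (SE 0.14) in Col-0 and 1.35 (SE 0.15) in *atm1-1*, with an interaction of 0.87 (SE 0.19, adjusted p = 0.532) in edgeR's quasi-likelihood test. The value was 0.87 with each sugar alone. Without Col-0 sucrose replicate 3, the highest Col-0 library for this gene, it was 1.00 (adjusted p = 0.0581). Of the 18 fits that left out 1 library this was the only 1 with a call, and the value ran from 0.80 to 1.00 over them.

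**Figure D2:**
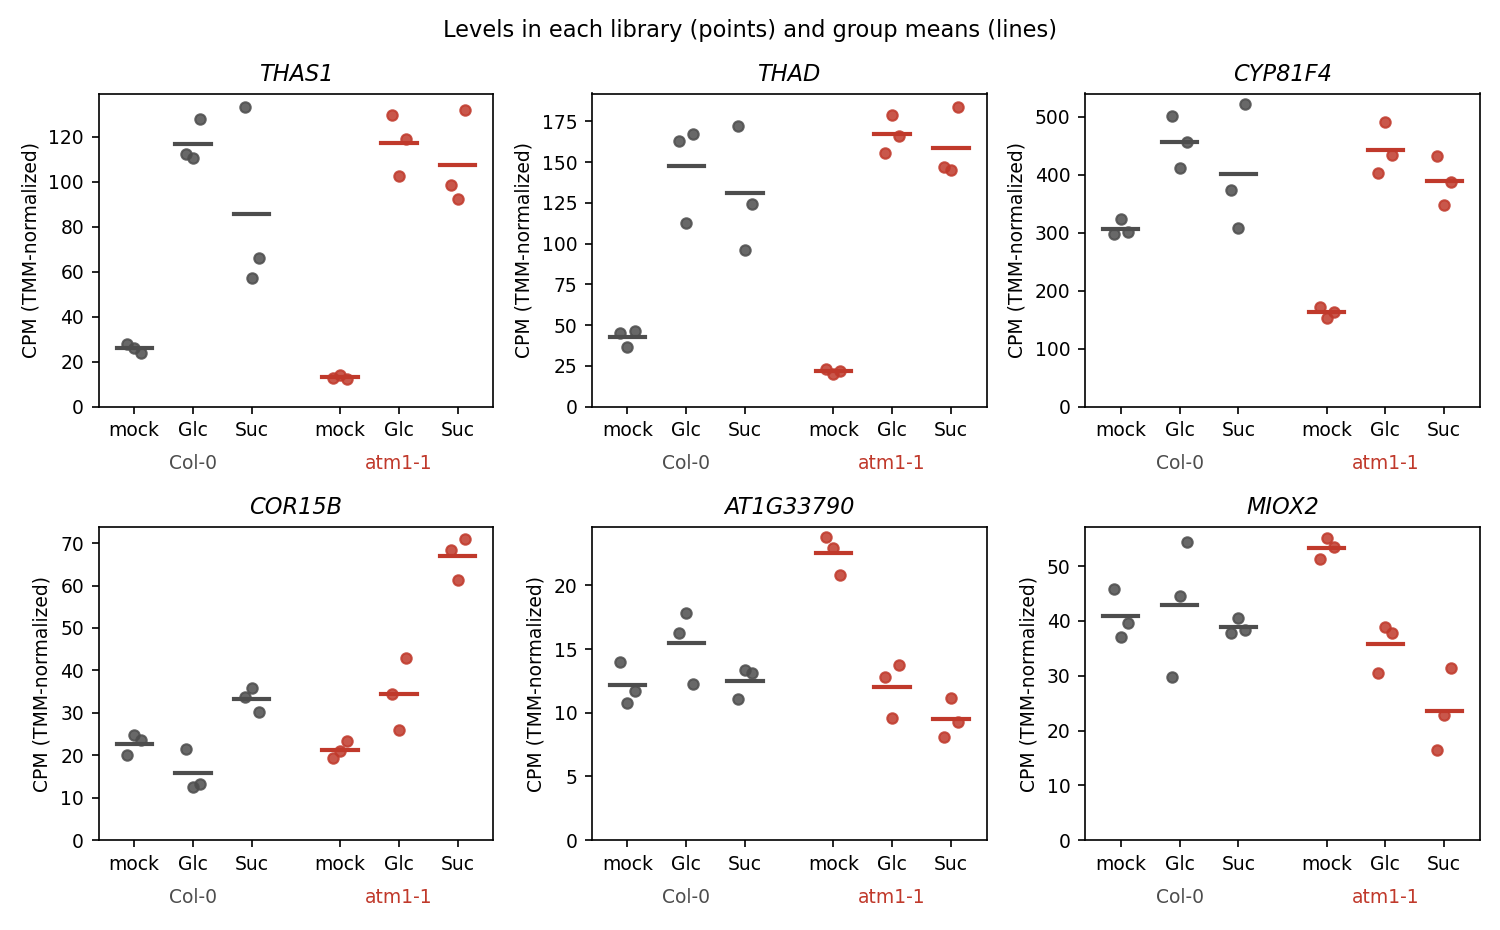
Levels of 6 genes in each library in TMM-scaled CPM (y axis) by genotype and treatment (x axis), with points for libraries and lines for the means of 3 libraries. The *atm1-1* mock libraries lie lowest for *THAS1*, *THAD* and *CYP81F4* and highest for AT1G33790, and the *atm1-1* sucrose libraries lie highest for *COR15B* and, in 2 of 3, lowest for *MIOX2*.

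Genes for methionine-derived (aliphatic) glucosinolates leaned the same way as a list. Of 27 genes, 24 were tested, 22 had a positive and 2 a negative interaction, and the median was 0.58, against -0.01 over all genes. At an unadjusted p under 0.05, 9 were positive (1.96% over all genes) and 0 negative (1.39%), and 0 passed after adjustment. Sugar raised 1 of the 24 in Col-0 and 12 in *atm1-1* at the threshold, where it raised 0.889% and 3.45% of all tested genes, so that more genes of any kind were called in *atm1-1*. The median responses of the list were 0.32 and 0.80. In mock libraries 23 of the 24 had a lower fitted level in *atm1-1*, with a median difference of -1.05, and with sugar 21 of 24 did, with a median of -0.49. The median interaction ran from 0.37 to 0.70 over fits that left out 1 library, lowest without *atm1-1* mock replicate 1, and was 0.34 with glucose as the only sugar. These genes were already known from these data to differ between the genotypes, so the count is no independent evidence.

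The members span the pathway. *IPMI-SSU2*, a small subunit of the isomerase that lengthens methionine, read 27.9, 23.6 and 20.8 CPM in Col-0 mock libraries and 6.63, 13.4 and 6.38 CPM in *atm1-1* mock libraries, then 20.9 to 32.4 and 14.3 to 26.6 with sugar. Its response was 0.18 in Col-0 and 1.14 in *atm1-1*, and the interaction 0.97 (SE 0.30, adjusted p = 1.000) in edgeR's quasi-likelihood test. *UGT74C1*, a glucosyltransferase gene of the core pathway, stood at 24.7 to 33.1 CPM in Col-0 and 12.5 to 16.7 CPM in *atm1-1* mock libraries, with an interaction of 0.61 (SE 0.22). Both genes had *atm1-1* mock libraries below all Col-0 mock libraries. *FMOGS-OX1*, which oxidises the side chain, had 2.27 (SE 0.82) at levels of 0.0576 to 0.236 CPM in *atm1-1* mock libraries, so its size rests on very few reads. *CYP83A1*, a P450 of the core pathway, remained lower in *atm1-1* with sugar too, at 12.7 to 19.9 CPM against 22.4 to 44.6 CPM without overlap, and its interaction was 0.91 (SE 0.34). The chain-elongation genes *MAM1* and *BCAT4* had interactions of 0.66 (SE 0.41) and 0.60 (SE 0.33), and the regulators *MYB28* and *MYB29* 0.11 (SE 0.28) and 0.44 (SE 0.88).

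Indole glucosinolate and sulfur genes leaned positive by less. All 16 indole glucosinolate genes were tested, with 14 positive, 2 negative, 3 positive at an unadjusted p under 0.05 (1.96% over all genes) and a median of 0.18, which stayed between 0.13 to 0.25 when single libraries were left out. Besides *CYP81F4* the 3 included *SOT16*, a sulfotransferase gene, at 0.39 (SE 0.18) and *IGMT5*, a methyltransferase gene, at 0.52 (SE 0.24). Sugar raised 1 of the 16 in Col-0 (0.889% of all tested genes) and 7 in *atm1-1* (3.45%). Of 18 genes for sulfate uptake and assimilation, which supply the sulfur of these compounds, 17 were tested, 15 were positive and 2 negative, and 3 were positive at an unadjusted p under 0.05, again beside 1.96%. The median was 0.24, and it was 0.39 without Col-0 mock replicate 1 and 0.35 without Col-0 sucrose replicate 3. It was lowest, at 0.17, without Col-0 mock replicate 3 among the fits that left out 1 library. With glucose as the only sugar it was 0.14, and with sucrose as the only sugar 0.44. Sugar raised 3 of the 17 in Col-0 and 8 in *atm1-1* in edgeR's quasi-likelihood test, beside the same 0.889% and 3.45% of all genes.

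*APK2*, an APS kinase gene that makes the sulfate donor, read 19.3, 17.3 and 16.8 CPM in Col-0 and 10.7, 8.43 and 11.1 CPM in *atm1-1* mock libraries and 23.0 to 33.8 and 22.0 to 27.1 CPM with sugar. The mock libraries of the genotypes were apart and the sugar libraries were not, and the interaction was 0.64 (SE 0.21). *SULTR1;2*, the main root sulfate importer, was at 31.5 to 44.2 CPM in Col-0 and 28.0 to 31.0 CPM in *atm1-1* mock libraries with an interaction of 0.49 (SE 0.22), and *SDI2*, a sulfur-deficiency gene known to restrain glucosinolate synthesis, at 29.8 to 39.1 and 20.6 to 25.1 CPM with 0.55 (SE 0.20).

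Other genes among the 10 of lowest p with a positive interaction had lower *atm1-1* mock libraries as well. *UGT72E2*, a glucosyltransferase gene for lignin precursors, read 38.3, 29.0 and 39.5 CPM in Col-0 and 17.3, 19.2 and 24.9 CPM in *atm1-1* mock libraries and 37.7 to 56.6 and 43.3 to 53.9 CPM with sugar, with an interaction of 0.78 (SE 0.21). AT5G38030, a MATE efflux carrier gene, read 9.38, 9.57 and 14.1 CPM and 8.19, 4.33 and 4.74 CPM in mock, with 1.08 (SE 0.29). *MAKR6*, a membrane-associated kinase regulator gene, had a negative estimate in Col-0 (-0.60, SE 0.17) and a positive one in *atm1-1* (0.39, SE 0.18), neither response passing the threshold.

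**Figure D3:**
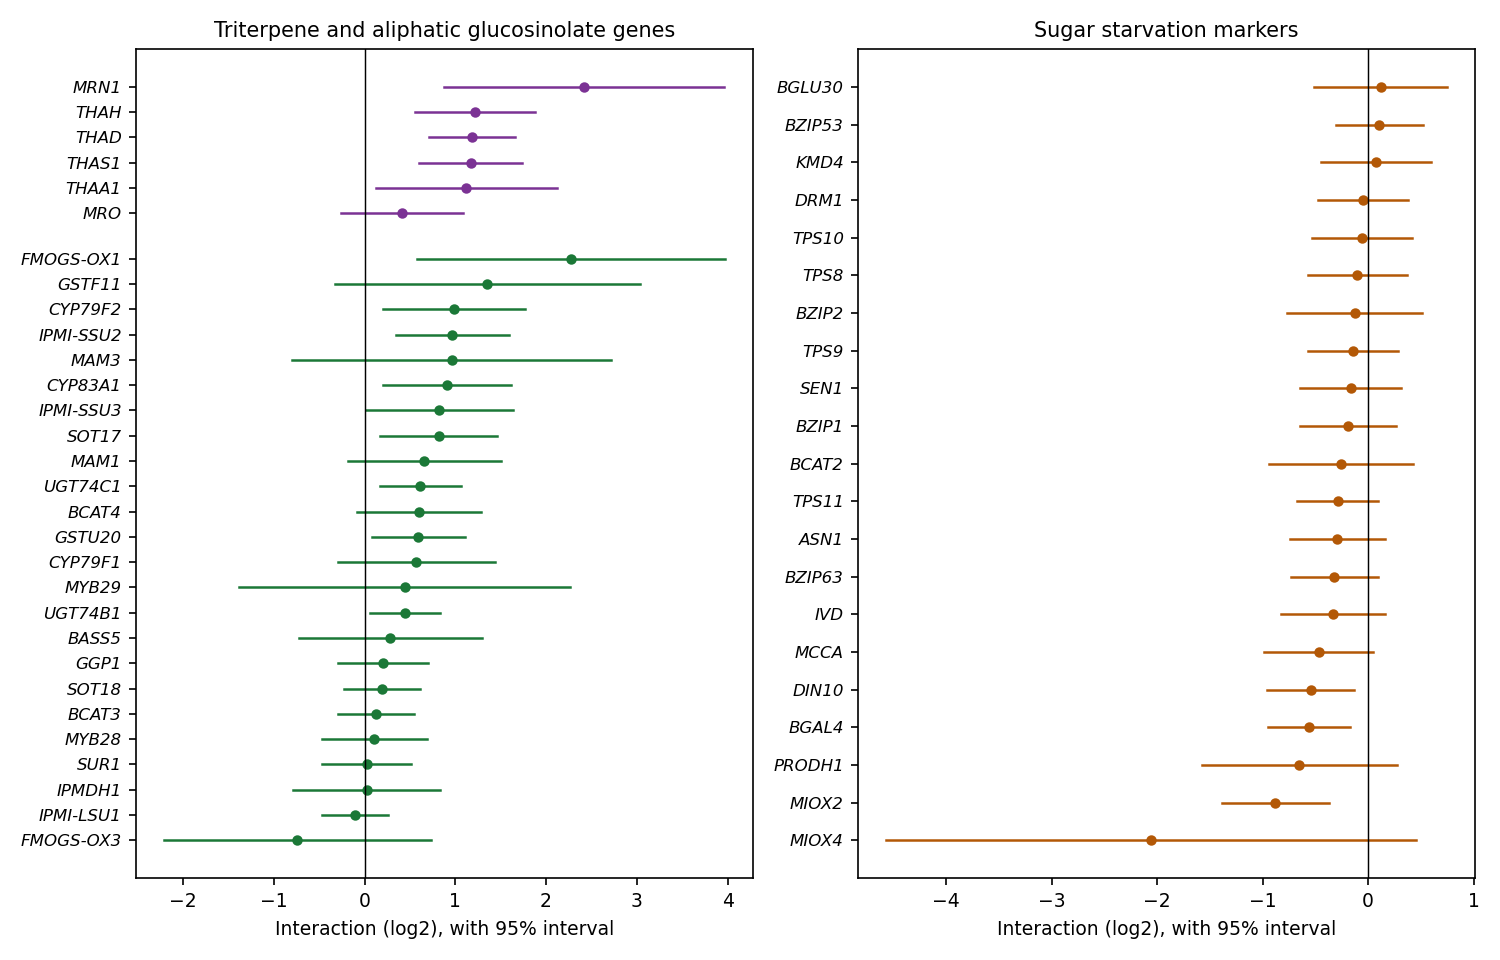
Interaction of each tested gene with its 95% interval (x axis, log2) for the 6 triterpene genes (purple) and 24 aliphatic glucosinolate genes (green), left, and the 21 sugar starvation markers (brown), right. Of the 30 genes on the left 28 lie above 0, and 18 of the 21 on the right lie below it.

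The lowest p of all 19679 genes belonged to a negative interaction. AT1G33790, annotated as a jacalin lectin family protein, read 14.0, 10.7 and 11.8 CPM in Col-0 mock libraries, 16.3, 17.9 and 12.2 with glucose and 11.1, 13.4 and 13.1 with sucrose. In *atm1-1* it read 23.8, 22.9 and 20.8 in mock, 12.8, 9.59 and 13.8 with glucose and 8.12, 11.2 and 9.28 with sucrose. The 3 *atm1-1* mock libraries were above all other libraries, and the sugar libraries of the genotypes overlapped. Sugar lowered it in *atm1-1* (-1.07, SE 0.16, adjusted p = 1.80e-04 in edgeR's quasi-likelihood test) and the Col-0 response was 0.19 (SE 0.17, adjusted p = 0.775), giving an interaction of -1.26 (SE 0.24, unadjusted p = 1.93e-05, adjusted p = 0.223). It was -1.24 with glucose and -1.28 with sucrose, and -1.37 to -1.17 over fits that left out 1 library.

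Genes known to be switched on when sugar is short leaned negative. Of 21 such markers, all tested, 18 had a negative and 3 a positive interaction, with a median of -0.26, and 3 were negative (1.39% over all genes) and 0 positive (1.96%) at an unadjusted p under 0.05. Sugar lowered 3 of the 21 in Col-0 and 11 in *atm1-1* in edgeR's quasi-likelihood test, where it lowered 0.386% and 2.69% of all tested genes. The median responses of the list were -0.24 and -0.60. The median interaction was between -0.32 to -0.17 when single libraries were left out, nearest 0 without *atm1-1* sucrose replicate 1, and -0.12 without the 3 libraries of lowest quality weight, an alternative chosen after seeing the data. *MIOX2*, a myo-inositol oxygenase gene, read 45.8, 37.1 and 39.6 CPM in Col-0 mock libraries, 29.7, 44.5 and 54.5 with glucose and 37.8, 40.5 and 38.3 with sucrose, against 51.2, 55.2 and 53.5, 30.5, 39.0 and 37.7 and 16.4, 22.9 and 31.5 in the same order in *atm1-1*. Its level in *atm1-1* mock libraries was above that in every other group but for 1 Col-0 glucose library, and in sucrose libraries it was the lowest in 2 of 3. The Col-0 response was 0.00 (SE 0.17), the *atm1-1* response -0.88 (SE 0.17) and the interaction -0.88 (SE 0.25).

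*DIN10*, a dark-inducible raffinose synthase family gene, read 588, 516 and 574 CPM in Col-0 and 704, 651 and 617 CPM in *atm1-1* mock libraries and 375 to 564 and 266 to 459 CPM with sugar. Its interaction was -0.54 (SE 0.20), and that of *BGAL4*, a beta-galactosidase gene, -0.56 (SE 0.19). *ASN1*, the asparagine synthetase gene often used as a readout of sugar shortage, had -0.29 (SE 0.22) and *SEN1* -0.17 (SE 0.23). *BZIP63*, a factor of the starvation pathway, had -0.32 (SE 0.20), and *PRODH1*, the proline dehydrogenase gene, -0.65 (SE 0.45). *PRODH1* read 237 CPM in Col-0 sucrose replicate 3, 1 of the 3 libraries of lowest quality weight, beside 44.0 and 72.7 in the other Col-0 sucrose libraries. The intervals of *ASN1*, *SEN1*, *BZIP63* and *PRODH1* each span 0.

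A pair of related regulators lay among the negative genes of lowest p. *BT2* (AT3G48360), a BTB and TAZ domain protein whose transcript is known to be held down by sugar, read 217, 214 and 272 CPM in Col-0 mock libraries, 149, 218 and 209.9 with glucose and 174, 209.7 and 194 with sucrose, and in *atm1-1* 361, 355 and 363, 172, 185 and 212 and 127, 164 and 162. The *atm1-1* mock libraries stood above every other library. In *atm1-1* it fell by 1.09 on the log2 scale (adjusted p = 1.05e-05, edgeR's quasi-likelihood test), the Col-0 response was -0.28 (adjusted p = 0.454), and the interaction was -0.80 (SE 0.19). *BT5*, of the same family, read 55.0, 48.7 and 67.3 CPM in Col-0 and 69.4, 71.5 and 77.2 CPM in *atm1-1* mock libraries, with an interaction of -0.69 (SE 0.21).

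AT4G36850, a PQ-loop transmembrane protein gene, showed the opposite layout. Its mock libraries read 126, 127 and 133 CPM in Col-0 and 141, 132 and 134 CPM in *atm1-1* and overlapped, while the 6 *atm1-1* sugar libraries (41.6 to 79.9 CPM) all lay below the 6 of Col-0 (83.4 to 136 CPM). The interaction was -0.82 (SE 0.20). *SNRK2.3*, an abscisic acid signalling kinase gene, was likewise lower in every *atm1-1* sugar library (6.07 to 9.41 CPM) than in every Col-0 one (9.88 to 13.8 CPM), with -0.76 (SE 0.25). *EMB1144*, the chorismate synthase gene that feeds aromatic amino acids, had a Col-0 response of 0.44 and an *atm1-1* response of -0.48, at 12.2 to 13.9 and 17.2 to 23.4 CPM in mock, and an interaction of -0.92 (SE 0.22). The remaining 3 were *HMT-1*, a homocysteine methyltransferase gene that makes methionine, at -1.02 (SE 0.32), *APO4*, an organelle RNA-binding protein gene, at -0.81 (SE 0.27), and AT5G08390, a WD40 repeat protein gene, at -0.82 (SE 0.27).

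Photosynthesis genes, which sugar is known to hold down, gave small values. The 19 Calvin cycle genes had a median interaction of -0.15, with 16 negative, 3 positive and 0 at an unadjusted p under 0.05, and sugar lowered 1 of them in Col-0 and 10 in *atm1-1*, against 0.386% and 2.69% of all tested genes. *RCA*, the Rubisco activase gene, read 874, 862 and 857 CPM in Col-0 and 649, 975 and 647 CPM in *atm1-1* mock libraries and 677 to 844 and 473 to 633 CPM with sugar, with an interaction of -0.29 (SE 0.19). *atm1-1* mock replicate 2 was high for *RCA*. The median of the list was -0.05 without that library, -0.07 without *atm1-1* sucrose replicate 1, -0.08 without *atm1-1* glucose replicate 2, -0.09 without Col-0 sucrose replicate 1 and -0.10 without Col-0 mock replicate 2, and it was negative in each of the 18 fits that left out 1 library. The 37 photosystem and antenna genes had a median of -0.01, with 16 positive, 21 negative and 0 at an unadjusted p under 0.05, and median responses of -0.33 in Col-0 and -0.31 in *atm1-1*. The positive share of these genes, 43.2%, was 18.9% without *atm1-1* mock replicate 1 and 73.0% without *atm1-1* mock replicate 2, and the median ran from -0.08 to 0.05 over the fits that left out 1 library. Sugar lowered 1 of the 37 in Col-0, 9 in *atm1-1* and 27 over both genotypes together in edgeR's quasi-likelihood test, against 0.386%, 2.69% and 5.78% of all tested genes.

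**Figure D4:**
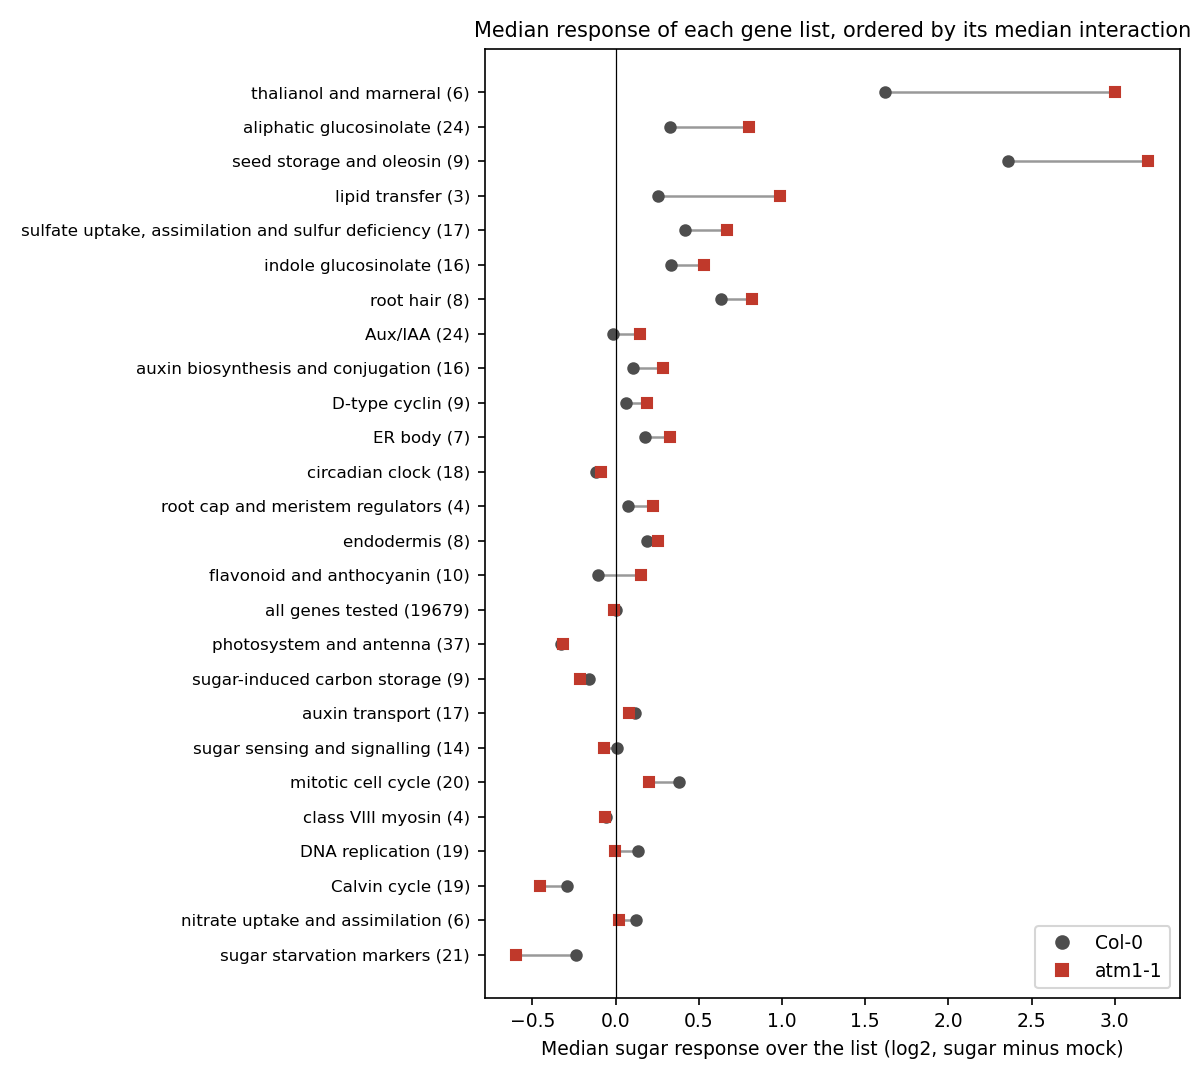
Median sugar response (x axis, log2 sugar minus mock) of each gene list in Col-0 (circles) and *atm1-1* (squares), ordered by median interaction with the number of tested genes in brackets. The gap between the genotypes is widest for the triterpene list (1.62 and 3.00), followed by seed storage and oleosin (2.36 and 3.2), lipid transfer with 3 genes (0.25 and 0.99), aliphatic glucosinolate (0.32 and 0.80) and starvation (-0.24 and -0.60), and all 19679 genes together lie at 0.00 and -0.01.

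The interaction of the 20 named genes of lowest p lay more in the mock than in the sugar libraries. Of the 10 positive ones, all 10 had the lower mock level in *atm1-1* by point estimate, 9 with libraries that did not overlap, which held for 6.53% of all tested genes, and in 0 were the sugar libraries of the genotypes apart, against 0.523% of all genes in either direction. Of the 10 negative ones, 7 had *atm1-1* mock libraries above all Col-0 mock libraries, against 6.29% of all genes, and 2 had sugar libraries that were apart. The difference between genotypes was larger in size without sugar than with it in 9 of the 10 positive and 6 of the 10 negative genes. In *atm1-1* 9 of the 10 positive genes were raised and 9 of the 10 negative ones lowered at the threshold (3.45% and 2.69% of all genes), and in Col-0 4 and 0 were (0.889% and 0.386%). The genes were chosen by the interaction, which contains both differences, and a mock mean rests on 3 libraries where a sugar mean rests on 6, so these counts describe the genes and are not a test.

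**Figure D5:**
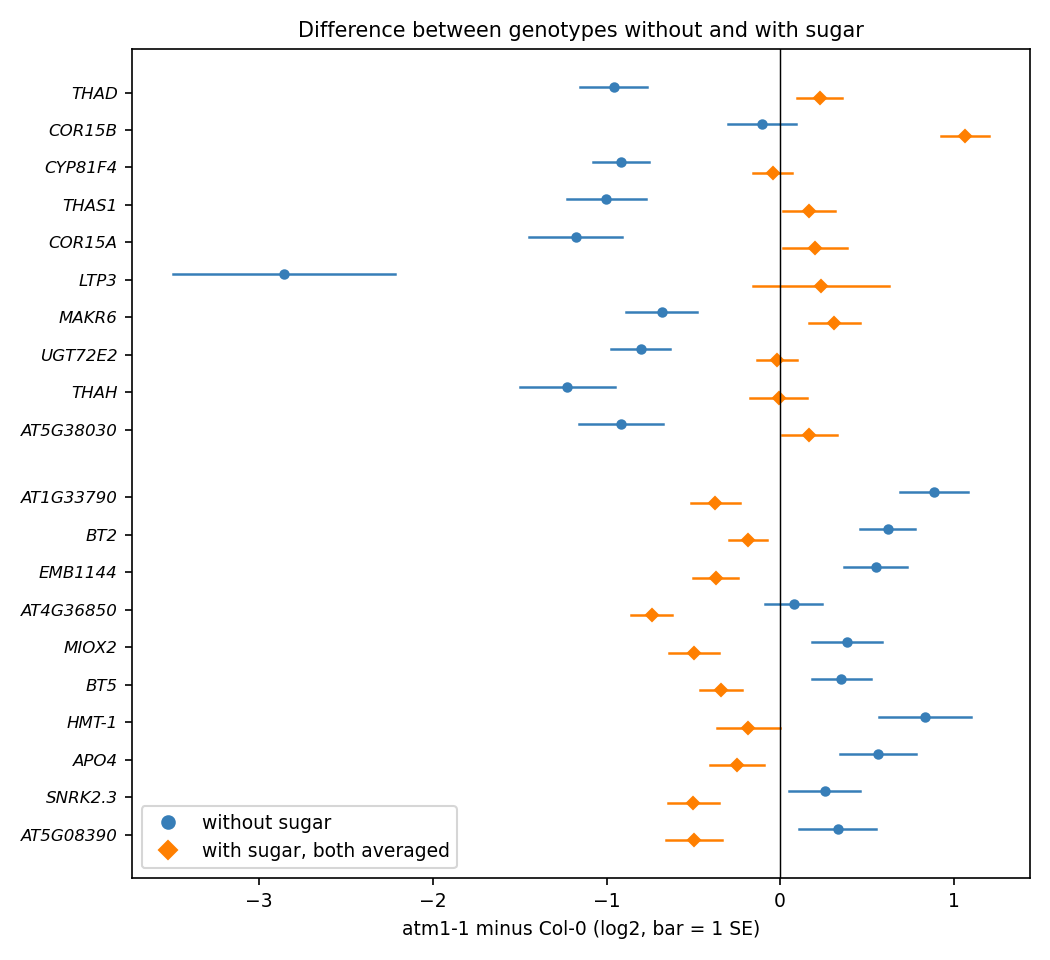
Difference between genotypes (x axis, log2 *atm1-1* minus Col-0) without sugar (circles) and with sugar, both sugars averaged (diamonds), for the 10 positive genes of lowest p above and the 10 negative ones below, with bars of 1 SE. All were taken among genes with mean log2 CPM of at least 1. For 9 of the upper 10 the circle lies farther from 0 than the diamond, *COR15B* being the exception, and in the lower 10 this holds for 6.

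Auxin genes, which the study followed, gave few values at an unadjusted p under 0.05, and signs within the lists were mixed. The study's text names *YUC3*, *YUC6*, *YUC8*, *GH3.17*, *IAA19* and *IAA29* as upregulated in *atm1-1*. It proposes that sucrose cues in the absence of *ATM1* account for this. Of 28 Aux/IAA repressor genes 24 were tested, with 20 positive, 4 negative and a median interaction of 0.14. At an unadjusted p under 0.05 there was 1 in each direction, beside 1.96% positive and 1.39% negative over all tested genes. The positive share, 83.3%, was 62.5% to 80% when single libraries were left out. With each sugar taken alone, 12 of the 24 were positive with both sugars and 2 negative with both. The median ran from 0.05 without *atm1-1* mock replicate 1 to 0.26 without *atm1-1* mock replicate 2. The medians of the other auxin, cell cycle, sugar sensing and clock lists given below lay between -0.14 and 0.13. With single libraries left out, the medians of the auxin transport, mitotic, class VIII myosin, clock, root hair, endodermis and root cap lists took both signs. The 2 Aux/IAA genes at an unadjusted p under 0.05 were *IAA29* at 0.66 (SE 0.31) and *IAA6* at -2.33 (SE 1.05). *IAA29* read 15.6 to 25.4 CPM in Col-0 and 11.4 to 31.0 CPM in *atm1-1* sugar libraries. *IAA6* read 0.0839 to 1.77 CPM in Col-0 and 0 to 0.801 CPM in *atm1-1*. *IAA19* had 0.39 (SE 0.37). Of 21 genes for auxin synthesis and conjugation 16 were tested, 9 positive and 7 negative with a median of 0.13.

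*YUC3*, a flavin monooxygenase gene of the last step of auxin synthesis, read 4.69, 3.22 and 5.62 CPM in Col-0 and 4.09, 0.709 and 3.43 CPM in *atm1-1* mock libraries and 3.43 to 7.50 and 3.83 to 9.10 CPM with sugar. All groups overlapped, *atm1-1* mock replicate 2 was low, and the interaction was 1.14 (SE 0.49). *YUC6* and *YUC8* had 0.64 (SE 0.61) and 0.48 (SE 0.58). Among the GH3 genes, which conjugate auxin to amino acids, *GH3.5* had -0.63 (SE 0.29), *GH3.2* -0.67 (SE 0.32) and *GH3.17* 0.18 (SE 0.22). The auxin genes that the study names were all positive with sucrose alone, and none passed after adjustment. *YUC3* had 1.13 (SE 0.56), *YUC6* 0.76 (SE 0.69) and *YUC8* 0.17 (SE 0.65). *GH3.17* had 0.38 (SE 0.25), *IAA19* 0.49 (SE 0.42) and *IAA29* 0.77 (SE 0.35). With glucose alone *GH3.17* was -0.02 (SE 0.25) and the others were positive. The 17 tested auxin transport genes of 18 had a median of -0.03, and *PILS5*, a carrier gene of the endoplasmic reticulum, was the 1 at an unadjusted p under 0.05, at 0.43 (SE 0.20) with mock libraries at 69.4 to 77.5 CPM in Col-0 and 46.1 to 62.0 CPM in *atm1-1*.

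Cell cycle genes were weakly expressed in whole seedlings and gave wide intervals. Of 22 mitotic genes 20 were tested, 5 positive and 15 negative with a median of -0.12, which turned to 0.02 without Col-0 mock replicate 1. In edgeR's quasi-likelihood test sugar raised 4 of them over both genotypes together (5.94% of all tested genes) and 0 in either genotype alone. The B-type cyclins *CYCB1;4*, *CYCB2;3* and *CYCB2;4* had interactions of 0.28 (SE 0.48), -0.42 (SE 0.49) and -0.11 (SE 0.46) with both sugars averaged. With sucrose alone they were 0.81 (SE 0.55), -0.63 (SE 0.56) and 0.08 (SE 0.52) in that order. With glucose alone they were -0.24 (SE 0.56), -0.22 (SE 0.56) and -0.31 (SE 0.53). *CYCA3;1* had -1.11 (SE 0.51), with Col-0 mock libraries at 0.521, 2.90 and 2.27 CPM. The 19 DNA replication genes had a median of -0.14, with *ORC1B*, a subunit gene of the origin recognition complex, at -1.14 (SE 0.54) and *E2FC*, a repressor of S-phase entry, at 1.34 (SE 0.64). The 9 D-type cyclin genes, which answer to sugar and hormones, had a median of 0.09 with 0 at an unadjusted p under 0.05.

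The sugar sensing genes themselves, hexokinase, TOR complex and SnRK1 subunits, had a median interaction of -0.09 over 14 tested of 15, with 4 positive, 10 negative and 0 at an unadjusted p under 0.05. The 4 class VIII myosin genes had a median of -0.12 and values from -0.22 to 0.28, with 0 at an unadjusted p under 0.05. The 9 tested genes listed as sugar-induced carbon storage had median responses of -0.16 in Col-0 and -0.22 in *atm1-1*. Sugar raised 1 of them in each genotype, against 0.889% and 3.45% of all tested genes. Their median interaction was -0.02, with 4 positive and 5 negative. *APL4*, a large subunit gene of the enzyme that makes ADP-glucose for starch, was the 1 at an unadjusted p under 0.05. It had -1.68 (SE 0.70) at 0.250 to 1.81 CPM. The 18 clock genes had a median of 0.06, and *PRR3* among them had -1.30 (SE 0.56) from Col-0 mock libraries at 0.447 to 1.01 CPM and *atm1-1* mock libraries at 1.57 to 3.4 CPM. Nitrate genes (6 tested of 7) and flavonoid genes (10 tested of 19) had medians of -0.23 and -0.01 with 0 at an unadjusted p under 0.05. The flavonoid median ran from -0.16 to 0.46 when single libraries were left out, highest without Col-0 sucrose replicate 2.

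Marker lists of tissues and of the late embryo (seed storage and oleosin genes) were read beside these results. Seed storage and oleosin genes (9 tested of 16) had median responses of 2.36 in Col-0 and 3.2 in *atm1-1*, with 6 and 8 called higher (0.889% and 3.45% of all genes) and 1 called lower in each (0.386% and 2.69%), a median interaction of 0.35 and 0 at an unadjusted p under 0.05. Their mean log2 CPM per library was 0.717 to 0.752 in Col-0 mock and -0.151 to 0.329 in *atm1-1* mock libraries, and 1.39 to 4.07 and 2.29 to 3.99 with sugar. Without Col-0 glucose replicate 1 the median interaction was 0.85 and without Col-0 mock replicate 2 or Col-0 glucose replicate 3 it was 0.07 or 0.11. Endodermis genes (8 of 8) lay at a mean log2 CPM of 4.07 to 5.25 in Col-0 and 4.56 to 5.29 in *atm1-1* libraries and root hair genes (8 of 8) at 0.898 to 2.61 and 1.11 to 2.11. Their median interactions were 0.02 and 0.15, with 0 and 1 at an unadjusted p under 0.05, the 1 being *RHD6* at -2.25 (SE 1.05) and 0 to 1.39 CPM. The root cap and meristem regulators *SMB*, *WOX5*, *PLT1* and *PLT2* had at most 5 to 11 counts in any library and were not tested, and the other 4 of that list had a median of 0.03. ER body genes (7 of 7), which mark seedling epidermis, had 0.07. The part of tissue make-up in the interactions above was not tested.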

How the data were processed

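Whole 5-day-old seedlings were sampled in 3 biological replicates for each of 6 groups, and their 3′ mRNA libraries (Lexogen QuantSeq FWD) were sequenced on an Illumina instrument. The deposited table holds whole-number counts per gene, and the submitters' processing notes name STAR, HTSeq, edgeR and TAIR10, with versions and the use of strand in counting not given in the sources used here. Counts of this kind come from the last bases of transcripts, so they are compared between libraries and not between genes.

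All 18 count columns were used as deposited. Genes were kept by filterByExpr, libraries were scaled by TMM, and a model with a mean for each of the 6 groups (12 residual degrees of freedom) was fitted with edgeR 4.0.16 (glmQLFit and glmQLFTest) in R 4.3.3. Benjamini-Hochberg adjustment was made over the 19679 tested genes, and adjusted p-values of 0.1 or less were called. The study's own test (PoissonSeq) was not used here. Standard errors were taken from the quasi-likelihood fit as the log2 change divided by the square root of F. Intervals are 95% and cover the spread between libraries. Depth was 9450790 to 20256309 counts per library, so that a gene of 1 CPM rests on few reads, and PCR copies were not told apart. Gene names, promoters and neighbours come from RefSeq on TAIR10.1, and 32547 of the 32832 loci of the table were found there.

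Of 385 genes in 25 hand-made lists, 384 were in the table and 345 were tested. Named genes were those called for the interaction, the 10 of lowest p in each direction among genes whose log2 CPM averaged 1 or more, up to 3 of each list at an unadjusted p under 0.05, *ATM1* with the auxin and cyclin genes that the study's text names, and the 3 genes of largest response in each direction. Other list members are given as examples chosen after their values were seen. The members and lists were chosen with earlier results of these data known. Alternatives were other scalings (RLE, library totals), no filter, at least 10 counts in every library, DESeq2 1.42.0, limma 3.58.1 (voom with sample quality weights), 1 sugar at a time, a replicate block, a threshold of 0.05 and each library left out. The 3 libraries of lowest quality weight (*atm1-1* glucose replicates 1 and 2, Col-0 sucrose replicate 3) were left out together as an alternative chosen after seeing the data. The fit was also run on simulated counts, and the outcome is not given here.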

Additional observations from a re-analysis of the deposited data

How the results depend on the processing

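The count of interaction calls was 0 in the main analysis and stayed 0 with RLE scaling, library totals only, at least 10 counts in every library, 1 sugar at a time, the replicate block and a threshold of 0.05. It was 25 (20 positive, 5 negative) with no filter on low counts, 9 with DESeq2, 4 with limma voom and 2 (*COR15B* and *CYP81F4*) without the 3 libraries of lowest quality weight, and it ranged from 0 to 2 when 1 library was left out. The Col-0 count of 251 became 549 with no filter, 529 with DESeq2, 1054 with limma voom, 925 without the glucose libraries, 82 without the sucrose libraries, 535 without the 3 lowest-weight libraries and 163 at a threshold of 0.05, and ranged from 94 to 554 with 1 library left out. The *atm1-1* count of 1208 became 2517 with limma voom, 423 without the sucrose libraries and 755 at a threshold of 0.05, and ranged from 579 to 2272. The joint count of 2307 became 4005 with limma voom, 3566 without the glucose libraries and 753 without the sucrose libraries, and ranged from 1451 to 3418. Without the glucose libraries the split of Col-0 calls was 458 higher and 467 lower, and with limma voom 460 and 594. Scaling by library totals moved the median response of all genes by 0.10 in Col-0 and 0.08 in *atm1-1* on the log2 scale. The causes of these moves were not tested.

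Replicate numbers did not pair the libraries: of 45 same-numbered pairs 3 had a correlation of deviations over 0.1 (mean -0.01), and 4 of 18 libraries were closest to their own number. With the replicate block the counts were 0, 224, 1078 and 2155, of which the last 3 shared 215, 1058 and 2110 genes with the main fit.

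Of 1552 comparisons of a named gene's interaction with an alternative, 1521 kept the direction and 31 turned, in 7 genes whose interactions lay between -0.11 and 0.64 with intervals that span 0. *GH3.17* was -0.0125 without the sucrose libraries. *CRA1* was -0.0202 with limma voom and -0.0491 to 1.24 with 1 library left out. *CYCB1;4* was -0.24 without the sucrose libraries and -0.0231 to 0.83 with 1 library left out. *CYCB2;4* was 0.0839 without the glucose libraries and -0.39 to 0.29 with 1 library left out. AT4G11393 was -0.0133 without the glucose libraries, -0.0703 without the 3 lowest-weight libraries and -2.40 (without Col-0 mock replicate 3) to 0.93 with 1 library left out. AT1G03106 was -0.22 with limma voom, -0.18 without the 3 lowest-weight libraries and -0.26 to 0.36 with 1 library left out. AT1G54870 was 0.0200 with the replicate block, 1.1 without the glucose libraries and -0.35 to 0.20 with 1 library left out. Sugar-raised genes with the larger rise in *atm1-1* were 59.0% without the glucose libraries and 79.3% without the sucrose libraries.

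With 3 libraries a group the median half-width of the 95% interval was 0.647 log2 units, and genes under about 1 CPM rest on few reads.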
